A study of Saccharomyces cerevisiae with 12 samples.

Results

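Chromosome III of Saccharomyces cerevisiae carries the genes whose systematic ids begin with YCL (left arm) or YCR (right arm). The deposited counts held 187 such ids. All but 3 are described here, 71 genes on the left arm and 113 on the right, out of 7126 genes in all. PDI1 (YCL043C), GLK1 (YCL040W) and RPS14A (YCR031C) were left out. The gene set was picked because earlier results of these data had shown the chromosome to stand higher in both evolved strains than in AAC, so the genes were in effect chosen by their log2 fold changes against AAC. Values of these comparisons are therefore given as a description, and no p-value is given for a gene in them. The choice did not use the comparison of the 2 evolved strains with each other or that of the dilution rates within a strain, and these were tested. The dependence of a strain difference on the rate is made from the same comparisons with AAC, so it too is a description.

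All 3 strains secrete α-amylase, and all are derived from a CEN.PK laboratory background of mating type a, with most of TPI1 deleted. Each carries the 2-micron plasmid pAlphaAmyCPOT, on which α-amylase stands between the TPI1 promoter and terminator, with POT1 of Schizosaccharomyces pombe as the marker. AAC is the original strain, MH34 was isolated from AAC after UV mutagenesis and screening, and B184 was isolated in the same way from the MH34 line, so each evolved strain is 1 isolate. RNA came from carbon-limited chemostats, where the dilution rate sets the growth rate, at 0.1/h or at 0.2/h, and each of the 6 groups has 2 libraries from separate cultures (12 in all). Ethanol was added to the cultures of MH34 and B184 at 0.1/h against oscillations, and the methods do not name it for AAC, so strain and ethanol cannot be told apart at that rate. Nor can rate and ethanol be told apart within MH34 or B184, since the methods do not name it at 0.2/h.

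In yeast, the amount of a transcript usually follows the number of gene copies, so that cells with an additional chromosome tend to carry more of most of its transcripts. Single genes can depart from this where feedback, the growth conditions or a mutation sets their transcription. Chromosome III holds the MAT locus and the silent mating type cassettes HML and HMR, several genes of amino acid synthesis such as LEU2 and HIS4, and PGK1, a gene of glycolysis. The number of DNA copies was not measured in these libraries.

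The libraries held 6040221 to 10785960 counts. These 71 and 113 genes together took 1.84% to 1.93% of the counts in the 4 AAC libraries and 3.52% to 3.70% in the 8 libraries of the evolved strains, without overlap. Between 132 and 637 counts per library lay on TPI1, the gene that is mostly deleted in all strains. Of these genes, 160 passed the filter on low counts (59 on the left arm, 101 on the right), as did 6044 of all 7126 genes. The other 24 had at most 10 counts in any library, and 6 of them had none. A count over the 160 is thus not a count over all chromosome III genes. A gene could pass on libraries of the evolved strains alone, so the 160 include genes kept only because they are high there.

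**Figure D1:**
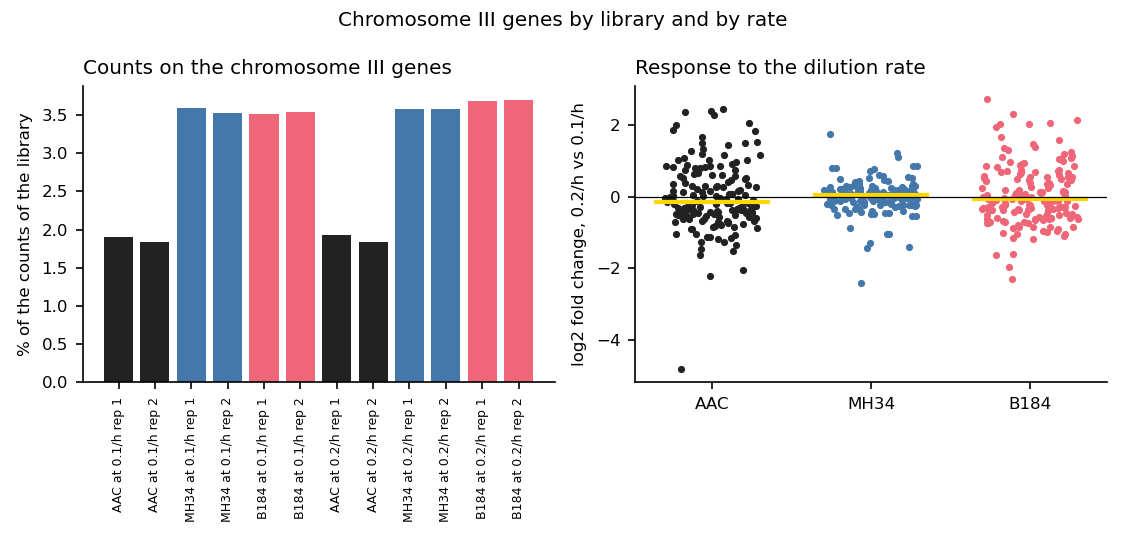
Left, percent of each library's counts (vertical axis) on the chromosome III genes, 1 bar per library. The AAC bars lie between 1.84% and 1.93% and those of MH34 and B184 between 3.52% and 3.70%. Right, log2 fold change at 0.2/h against 0.1/h of each of the 160 tested genes by strain, with the median as a horizontal line at -0.16 (AAC), 0.03 (MH34) and -0.07 (B184).

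The common shift was near 1 on the log2 scale. At 0.1/h, the median log2 fold change over the 160 genes was 0.87 in MH34 (1.83-fold) and 0.91 for B184 (1.88-fold), against 0.02 and -0.04 over all 6044 genes. At 0.2/h, it was 1.0 for MH34 (2.0-fold) and 0.97 for B184 (1.96-fold), against -0.01 and -0.02 over all genes. The medians of the other 15 nuclear chromosomes lay between -0.11 (chromosome I) and 0.13 (chromosome VI) for MH34 at 0.1/h, and between -0.10 and 0.05 in the other 3 comparisons. These 4 comparisons share the AAC libraries in pairs, and the genes of each share the same libraries, so the genes are not independent replicates.

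The width of the shift differed between the comparisons. The interquartile range of the log2 fold changes was 1.21 for MH34 at 0.1/h, where the genes of other chromosomes also spread widely (0.97). It was 0.47 for B184 at 0.1/h, 0.44 for MH34 at 0.2/h and 0.47 for B184 at 0.2/h, beside 0.46, 0.41 and 0.42 for other genes. Of the 160 genes, 146, 153, 159 and 158 had a log2 fold change above 0 in MH34 and B184 at 0.1/h and in MH34 and B184 at 0.2/h. Both libraries of the evolved strain lay above both of AAC for 141 genes in MH34 at 0.1/h (43.4% of all genes), 149 in B184 at 0.1/h (30.0%), 152 in MH34 at 0.2/h (33.2%) and 154 in B184 at 0.2/h (36.4%).

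At an adjusted p under 0.05 in edgeR's quasi-likelihood test, 124 genes were called higher in MH34 at 0.1/h, where 35.5% of all tested genes were. The count was 137 in B184 at 0.1/h (background 16.5%), 138 in MH34 at 0.2/h (17.4%) and 139 in B184 at 0.2/h (18.4%). Since these comparisons chose the genes, nothing is read from the counts. In the other direction, 6 genes were called lower in MH34 at 0.1/h (33.3% of all), 1 in B184 at 0.1/h (20.4%) and 0 in either strain at 0.2/h (15.7% and 17.7%).

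**Figure D2:**
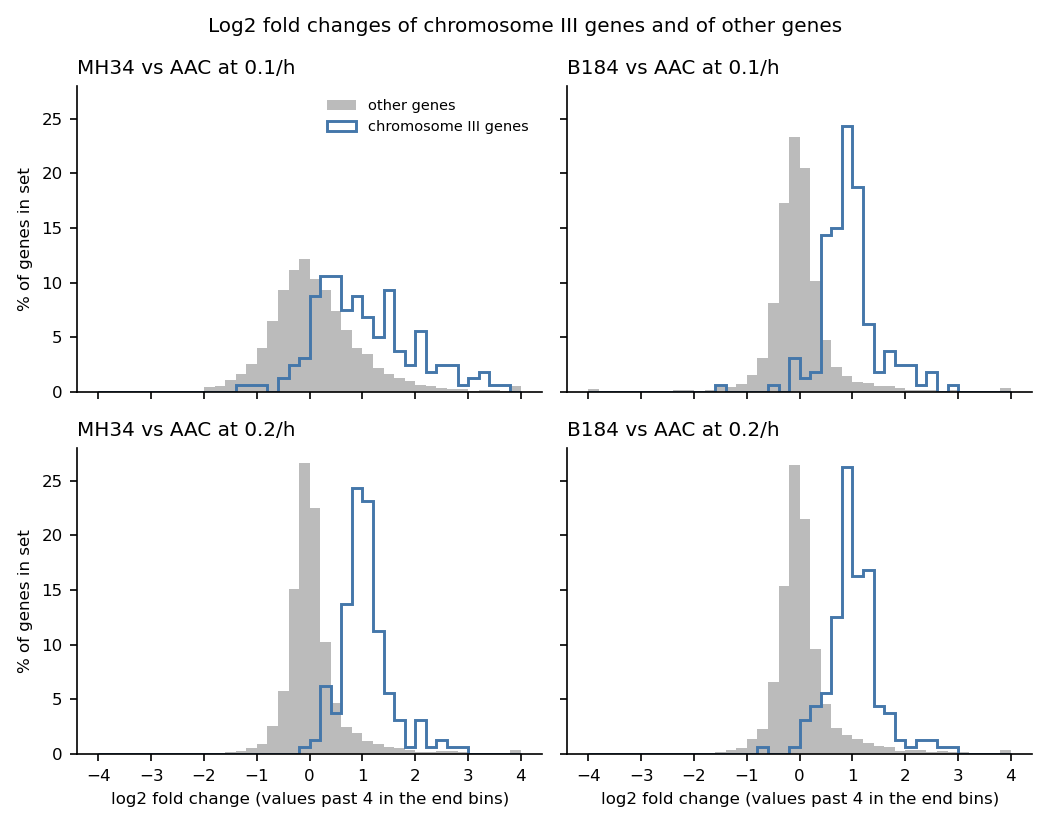
Share of genes (vertical axis, percent) by log2 fold change against AAC (horizontal axis), for the 160 chromosome III genes (blue outline) and the 5881 genes of other ids (grey), 1 panel per comparison. The chromosome III genes centre at 0.87, 0.91, 1.0 and 0.97, and in MH34 at 0.1/h both distributions are wide.

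The shift was present on both arms, along the stretch that the tested genes cover. The tested genes with RefSeq coordinates, 148 in number, ran from CHA1 (start at 15798) to YCR102C (end at 305467) on the R64 assembly. In 8 consecutive blocks of 18 or 19 genes, the lowest and the highest block median were 0.57 and 1.18 (MH34) and 0.61 and 1.09 (B184) at 0.1/h. At 0.2/h, they were 0.87 and 1.16 (MH34) and 0.89 and 1.21 (B184), so no block had a median near 0. The left arm had the higher median in each comparison, 1.12 against 0.77 (MH34) and 0.99 against 0.83 (B184) at the lower rate, and 1.07 against 0.97 (MH34) and 1.06 against 0.93 (B184) at the higher. The difference between the arms was not tested. At the right end, which was singled out after its values were seen, YCR099C, EMA35 and YCR101C (300832 to 303030) departed at 0.2/h by -0.66 and -0.67, -0.77 and -0.92, and -0.79 and -0.78 in MH34 and B184. At 0.1/h, the same 3 genes departed by 1.17 and 0.11, -0.69 and -0.19, and -0.52 and -0.18, so they did not lie below the band throughout. YCR099C and EMA35 overlap on the same strand, so their counts are uncertain, and YCR102C beyond them departed by 0.57 and 0.43 at 0.1/h and by -0.34 and -0.24 at 0.2/h.

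**Figure D3:**
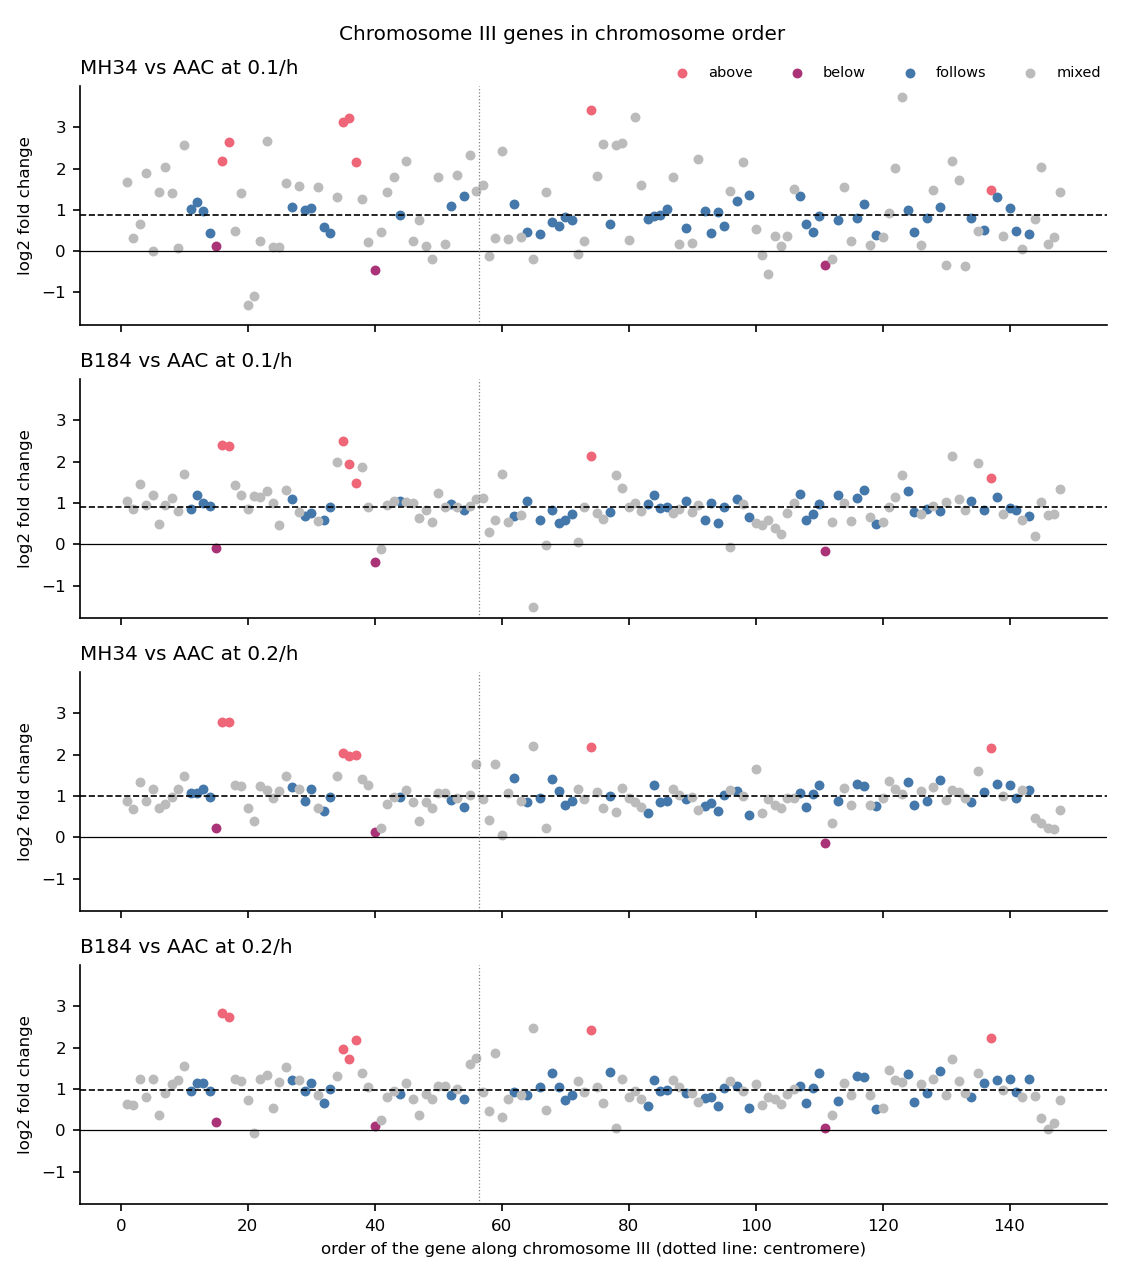
Log2 fold change against AAC (vertical axis) of the 148 tested genes with coordinates, in chromosome order (horizontal axis), 1 panel per comparison. The dashed line is the median of the 160 genes, the dotted line marks the centromere, and colours give the class over all 4 comparisons. Points lie around the dashed line on both arms, with a wider scatter in MH34 at 0.1/h.

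To say gene by gene which genes followed the common shift, the departure of a gene was taken as its log2 fold change minus the median of the 160 genes in that comparison. A gene within 0.5 of the median was said to follow. At 0.2/h, 126 genes followed in MH34 and 127 in B184, and at 0.1/h, 125 followed in B184 but 62 in MH34. Genes of other chromosomes lay within 0.5 of their own median at like or higher shares, 81.3%, 79.8%, 79.6% and 51.8%, beside 78.8%, 79.4%, 78.1% and 38.8% of the chromosome III genes. In MH34 at 0.1/h, 44 genes lay below the band and 54 above it. The limit itself separates near neighbours. PER1 (largest absolute departure 0.489) and YCR047W-A (0.486) were just inside, and RSC6 (0.505) and SOL2 (0.507) just outside.

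Over all 4 comparisons, 51 of the 160 genes followed each time (31.9%, beside 41.1% of other genes around their own medians). In all 4, 3 genes stayed below the band (YCL019W, YCL049C and TVS1; 1.88%, beside 1.75% of other genes) and 9 above it (5.62%, beside 5.20%), shares near those of other genes. The other 97 departed in some comparisons only. MH34 at 0.1/h accounted for much of this number, since 109 genes followed in the other 3 comparisons (68.1%, beside 69.7% of other genes). At 0.2/h alone, 119 genes followed in both strains (74.4%, beside 77.3% of other genes), 12 were below in both (7.5%, beside 5.24%) and 13 above in both (8.12%, beside 10.8%).

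**Figure D4:**
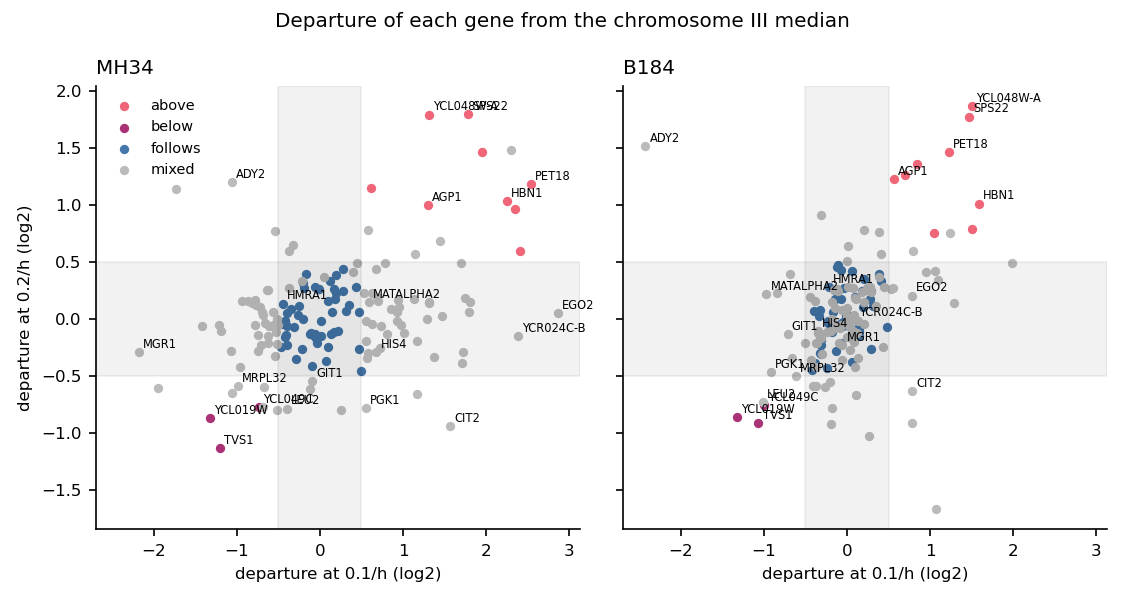
Departure of each of the 160 genes from the chromosome III median at 0.1/h (horizontal axis, log2) and at 0.2/h (vertical axis, log2), for MH34 (left) and B184 (right). Grey bands mark 0.5 around 0, colours give the class, and named genes are labelled. In MH34 the points spread along the horizontal axis, from -2.18 (MGR1) to 2.87 (EGO2), while in B184 most lie in the central square.

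The departures at 0.1/h and at 0.2/h come from different libraries and can be set beside each other. Across the 160 genes, Pearson's r between the departures at both rates was 0.369 in MH34 (Spearman's rho 0.301) and 0.403 in B184 (rho 0.471). With the 139 genes of at least 50 counts on average, r was 0.330 in MH34 and 0.499 in B184. These values are across genes, which share their libraries, and carry no test.

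The upstream sequence of 5 genes is shown because the results below turn on them. They are FUS1 and KAR4, which pheromone induces, HIS4, a target of the amino acid regulator Gcn4, SPS22, which stood above the shift, and TVS1, which stood below it. Each sequence is the 250 bases from 300 to 51 before the start codon, read 5′ to 3′ on the gene's strand from the RefSeq R64 genome. Capitals mark TGAAACA (pheromone response) in FUS1 and KAR4, TGACTCA (Gcn4) in HIS4, GATGAG (the core of the PAC element of ribosome assembly genes) in SPS22 and AGGGG (stress response) in TVS1, on either strand.
FUS1 (chrIII:71503-71752, + strand): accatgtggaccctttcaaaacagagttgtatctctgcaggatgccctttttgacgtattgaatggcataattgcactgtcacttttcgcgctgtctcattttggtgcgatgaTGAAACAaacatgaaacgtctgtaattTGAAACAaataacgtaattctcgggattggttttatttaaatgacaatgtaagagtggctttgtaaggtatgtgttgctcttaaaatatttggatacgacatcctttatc
KAR4 (chrIII:27629-27878, + strand): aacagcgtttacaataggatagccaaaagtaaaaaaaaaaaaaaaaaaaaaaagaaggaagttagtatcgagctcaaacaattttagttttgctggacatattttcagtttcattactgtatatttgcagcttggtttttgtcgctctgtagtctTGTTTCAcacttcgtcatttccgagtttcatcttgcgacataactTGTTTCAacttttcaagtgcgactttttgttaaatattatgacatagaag
HIS4 (chrIII:68384-68633, - strand): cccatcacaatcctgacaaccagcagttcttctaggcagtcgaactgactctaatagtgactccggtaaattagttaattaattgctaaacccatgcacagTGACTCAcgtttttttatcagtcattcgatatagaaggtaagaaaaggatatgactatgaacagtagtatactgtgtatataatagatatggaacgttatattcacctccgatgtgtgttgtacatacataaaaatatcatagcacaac
SPS22 (chrIII:41865-42114, + strand): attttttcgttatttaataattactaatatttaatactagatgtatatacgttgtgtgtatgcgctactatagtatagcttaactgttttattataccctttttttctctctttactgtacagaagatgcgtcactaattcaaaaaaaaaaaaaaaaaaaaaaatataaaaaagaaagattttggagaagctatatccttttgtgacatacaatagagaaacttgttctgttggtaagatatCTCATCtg
TVS1 (chrIII:225263-225512, + strand): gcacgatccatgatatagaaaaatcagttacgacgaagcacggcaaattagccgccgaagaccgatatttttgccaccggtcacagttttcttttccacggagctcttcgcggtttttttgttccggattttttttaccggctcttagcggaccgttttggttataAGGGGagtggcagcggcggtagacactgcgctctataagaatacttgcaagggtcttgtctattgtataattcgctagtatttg

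FUS1 and KAR4 hold 2 matches to TGAAACA each, and the other 3 windows 1 match each to the motif marked. In the same window, TGAAACA stood upstream of 5.41% of the 148 tested chromosome III genes and 6.13% of 6001 genes, and TGACTCA of 1.35% and 2.38%. AGGGG stood upstream of 18.2% and 19.2%, GATGAG of 20.3% and 17.8%, and CCAAT, the Hap motif, of 33.8% and 36.3%. A match is a description of the letters and not of binding.

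The genes nearest to the common shift in all 4 comparisons were SRB8, BUD3, SPB1 and RHB1. BUD3 (YCL014W, 96281 to 101191), which marks the site of the next bud, stood at 90.6 and 83.8 CPM in AAC, against 160.1 and 162 in the MH34 libraries and 176 and 186 in those of B184 at 0.1/h, where CPM are counts scaled to library size and composition by TMM. The values at 0.2/h were 78.0 and 84.9 CPM in AAC, against 154 and 167 in the MH34 libraries and 156 and 143 in those of B184. All 8 libraries of the evolved strains lay above the 4 of AAC, and the log2 fold changes were 0.88 ± 0.08 (MH34) and 1.05 ± 0.08 (B184) at 0.1/h and 0.98 ± 0.08 (MH34) and 0.88 ± 0.08 (B184) at 0.2/h (± SE).

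SRB8 (YCR081W, 254371 to 258654) encodes a subunit of the kinase module of Mediator, the complex that links regulators to RNA polymerase II. It stood at 45.4 and 35.6 CPM in AAC, against 68.6 and 72.4 in the MH34 libraries and 73.0 and 73.0 in those of B184 at 0.1/h, again without overlap with AAC. Its departures were -0.06 (MH34) and -0.05 (B184) at 0.1/h and -0.13 (MH34) and -0.06 (B184) at 0.2/h. SPB1, a methyltransferase of ribosomal RNA, departed by 0.15 (MH34) and -0.04 (B184) at 0.1/h and by 0.07 (MH34) and -0.02 (B184) at 0.2/h. RHB1, a small GTPase tied to basic amino acid uptake, departed by 0.01 (MH34) and -0.02 (B184) at 0.1/h and by -0.15 (MH34) and -0.02 (B184) at 0.2/h. These 4 genes thus stood higher than in AAC by almost the amount of the median in both strains and at both rates.

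The 3 genes that stayed below the band differed little from AAC or lay under it. TVS1 (YCR061W, 225563 to 227458) stood at 73.8 and 85.2 CPM in AAC, against 60.7 and 65.3 in the MH34 libraries and 64.2 and 78.6 in those of B184 at 0.1/h. Cultures at 0.2/h had 54.8 and 43.1 CPM in AAC, against 48.2 and 41.3 in the MH34 libraries and 55.4 and 46.6 in those of B184. The evolved strains thus lay near or under AAC, with log2 fold changes of -0.34 ± 0.14 (MH34) and -0.16 ± 0.14 (B184) at 0.1/h and -0.13 ± 0.15 (MH34) and 0.06 ± 0.14 (B184) at 0.2/h.

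YCL049C (39786 to 40724), an open reading frame of unknown function, stood at 111 and 126 CPM in AAC, against 127 and 132 in the MH34 libraries and 114 and 109 in those of B184 at 0.1/h. Its log2 fold changes were 0.13 ± 0.09 (MH34) and -0.09 ± 0.09 (B184) at that rate and 0.23 ± 0.08 (MH34) and 0.21 ± 0.08 (B184) at 0.2/h. YCL019W (85102 to 90415) is the Gag-Pol frame of a Ty2 retrotransposon. It departed by -1.32 (MH34) and -1.33 (B184) at 0.1/h and by -0.87 (MH34) and -0.85 (B184) at 0.2/h. The reference holds 12 further near-identical copies, 1 of them on chromosome VII with 99.7% identity, and how reads of several genes were counted is not stated, so the value cannot be assigned to the copy on chromosome III.

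Among genes with at least 50 counts on average, LEU2, MGR1 and MRPL32 had the next lowest mean departures. LEU2 (YCL018W, 91324 to 92418), which encodes an enzyme of leucine synthesis, lies beside YCL019W. It stood at 87.8 and 90.6 CPM in AAC, against 121 and 126 in the MH34 libraries and 75.9 and 90.2 in those of B184 at 0.1/h and at 113 and 106 CPM in AAC, against 120.2 and 134 in the MH34 libraries and 128 and 131 in those of B184 at 0.2/h. At 0.1/h, B184 overlapped AAC while MH34 lay above it, and LEU2 departed by -0.40 (MH34) and -1.01 (B184) at 0.1/h and by -0.78 (MH34) and -0.72 (B184) at 0.2/h. MRPL32, a protein of the large mitochondrial ribosomal subunit, departed by -0.99 (MH34) and -0.62 (B184) at 0.1/h and by -0.59 (MH34) and -0.50 (B184) at 0.2/h.

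MGR1 (YCL044C, 47111 to 48364), an adaptor of the protease of the inner mitochondrial membrane, lay below the band in MH34 at 0.1/h only. It stood at 304 and 278 CPM in AAC, against 114 and 120.5 in the MH34 libraries and 493 and 556 in those of B184 at 0.1/h. At 0.2/h it was at 91.1 and 114 CPM in AAC, against 166 and 169 in the MH34 libraries and 176 and 166 in those of B184. MH34 lay below AAC at 0.1/h and above it at 0.2/h, while B184 lay above AAC at both rates, with departures of -2.18 (MH34) and -0.06 (B184) at 0.1/h and -0.29 (MH34) and -0.23 (B184) at 0.2/h.

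**Figure D5:**
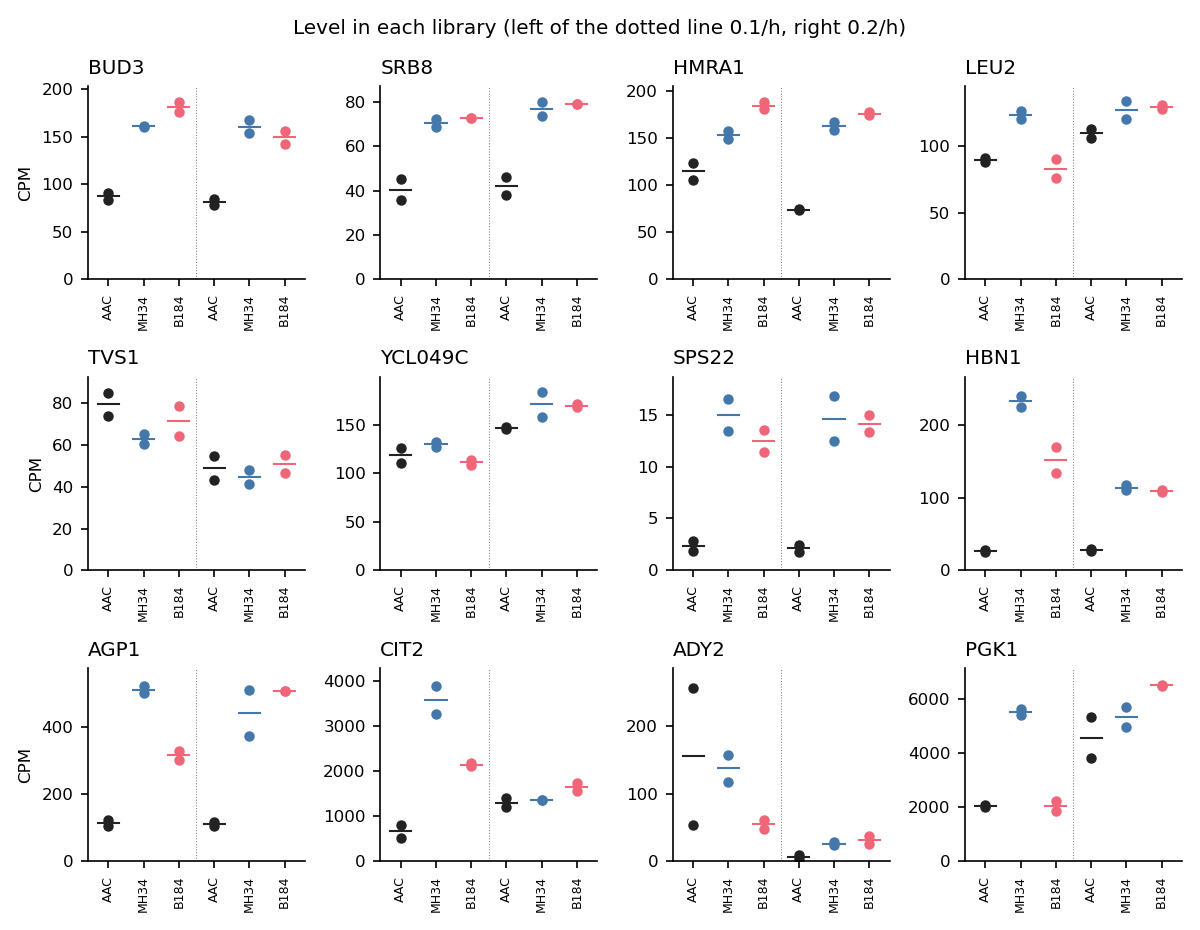
TMM-scaled CPM (vertical axes from 0) of 12 chromosome III genes in each of the 12 libraries, by strain, with 0.1/h left and 0.2/h right of the dotted line. Points are libraries and bars are the means of 2. BUD3 and SRB8 stand higher in both evolved strains at both rates, TVS1 and YCL049C do not, and CIT2 does so at 0.1/h but by little at 0.2/h.

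Above the common shift stood 9 genes in all 4 comparisons. Of these, SPS22, YCL048W-A, PET18, HBN1 and AGP1 have at least 50 counts on average and rank among the 6 highest. KIN82, FRM2, YCR064C and YCR097W-A make up the rest and were named after their values were seen. The last 3 have a mean of 41.6, 10 and 5.50 counts per library. In AAC, YCR064C had at most 6 counts in a library and YCR097W-A at most 3. Both thus passed the filter only through libraries of the evolved strains, and their place above the band carries no weight. SPS22 (YCL048W, 42165 to 43556), a gene of spore wall formation, stood at 1.89 and 2.82 CPM in AAC, against 16.6 and 13.5 in the MH34 libraries and 11.4 and 13.6 in those of B184 at 0.1/h. The values at 0.2/h were 2.45 and 1.75 CPM in AAC, against 12.4 and 16.9 in the MH34 libraries and 13.3 and 15.0 in those of B184. The 8 evolved libraries lay above the 4 of AAC by several fold, with log2 fold changes of 2.65 ± 0.27 (MH34) and 2.38 ± 0.28 (B184) at 0.1/h and 2.80 ± 0.26 (MH34) and 2.75 ± 0.26 (B184) at 0.2/h.

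YCL048W-A (41488 to 41727), a small reading frame next to SPS22 on the same strand, showed a like pattern at higher counts. It departed by 1.31 (MH34) and 1.50 (B184) at 0.1/h and by 1.79 (MH34) and 1.87 (B184) at 0.2/h. Its other neighbour, YCL049C on the opposite strand, is 1 of the 3 genes that stayed below the band. The chromosome thus has genes of opposite class side by side between 39786 and 43556.

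The longest run of neighbours on 1 side comprised FUS1, HBN1, FRM2, AGP1 and KCC4, with a positive departure in each comparison and a mean departure above 0.5, from 71803 to 82275. HBN1 (YCL026C-B, 73405 to 73986) belongs to the nitroreductase family and stood at 25.9 and 27.8 CPM in AAC, against 226 and 241 in the MH34 libraries and 134 and 170.0 in those of B184 at 0.1/h. Cultures at 0.2/h had 26.4 and 29.2 CPM in AAC, against 117 and 111 in the MH34 libraries and 111 and 108 in those of B184. HBN1 was several times as high in the evolved strains as in AAC in every library, and higher in MH34 at 0.1/h than elsewhere.

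FRM2, of the same protein family as HBN1, departed by 2.35 (MH34) and 1.04 (B184) at 0.1/h and by 0.97 (MH34) and 0.75 (B184) at 0.2/h. AGP1 (YCL025C, 76018 to 77919), a broad amino acid permease of the plasma membrane, stood at 124 and 104 CPM in AAC, against 503 and 524 in the MH34 libraries and 330.2 and 304 in those of B184 at 0.1/h. At 0.2/h it was at 116 and 105 CPM in AAC, against 376 and 513 in the MH34 libraries and 508 and 509 in those of B184. The evolved libraries exceeded those of AAC at both rates, and the departures were 1.30 (MH34) and 0.57 (B184) at 0.1/h and 1.0 (MH34) and 1.23 (B184) at 0.2/h. KCC4, a kinase at the bud neck, departed by 0.40 (MH34) and 0.95 (B184) at 0.1/h and by 0.41 (MH34) and 0.41 (B184) at 0.2/h.

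PET18 (YCR020C, 154012 to 154659) stood at 13.1 and 13.7 CPM in AAC, against 141 and 144 in the MH34 libraries and 56.1 and 61.9 in those of B184 at 0.1/h. It departed by 2.54 (MH34) and 1.23 (B184) at 0.1/h and by 1.18 (MH34) and 1.47 (B184) at 0.2/h. On the right arm, KIN82, a protein kinase, departed by 0.62 (MH34) and 0.70 (B184) at 0.1/h and by 1.15 (MH34) and 1.27 (B184) at 0.2/h. For both genes all evolved libraries lay above those of AAC.

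Some genes departed at 1 rate and not at the other. EGO2 (YCR075W-A, 248975 to 249202) encodes a subunit of the EGO complex, which relays amino acid signals to TORC1 at the vacuole. It stood at 5.04 and 5.37 CPM in AAC, against 74.3 and 64.8 in the MH34 libraries and 16.5 and 17.2 in those of B184 at 0.1/h. The values at 0.2/h were 29.9 and 27.2 CPM in AAC, against 62.3 and 56.5 in the MH34 libraries and 65.0 and 63.8 in those of B184. AAC was low at 0.1/h, and EGO2 departed by 2.87 (MH34) and 0.78 (B184) at 0.1/h and by 0.06 (MH34) and 0.21 (B184) at 0.2/h. YCR024C-B (162599 to 162865), a small reading frame of unknown function, showed the same contrast in MH34, with departures of 2.39 (MH34) and 0.10 (B184) at 0.1/h and -0.15 (MH34) and -0.01 (B184) at 0.2/h.

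CIT2 (YCR005C, 120946 to 122328), the peroxisomal citrate synthase of the glyoxylate cycle, went from above the band at 0.1/h to below it at 0.2/h. It stood at 797 and 524 CPM in AAC, against 3868 and 3250 in the MH34 libraries and 2171 and 2105 in those of B184 at 0.1/h. Cultures at 0.2/h had 1403 and 1192 CPM in AAC, against 1363 and 1349 in the MH34 libraries and 1550 and 1722 in those of B184. Both evolved strains exceeded AAC at 0.1/h and MH34 overlapped it at 0.2/h. CIT2 departed by 1.56 (MH34) and 0.79 (B184) at 0.1/h and by -0.94 (MH34) and -0.63 (B184) at 0.2/h.

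ADY2 (YCR010C, 132273 to 133124), an acetate transporter, went the opposite way. It stood at 54.1 and 257 CPM in AAC, against 158 and 117 in the MH34 libraries and 61.3 and 48.0 in those of B184 at 0.1/h. At 0.2/h it was at 8.70 and 2.62 CPM in AAC, against 23.9 and 28.0 in the MH34 libraries and 25.8 and 37.7 in those of B184. The AAC libraries at 0.1/h differed by several fold, so that MH34 lay within their range and its log2 fold change of -0.19 ± 0.62 became 1.35 without replicate 2 of AAC at 0.1/h. The value of B184, -1.52 ± 0.67, became 0.02 without the same library, so the low values at 0.1/h rested on it. The departures were -1.06 (MH34) and -2.43 (B184) at 0.1/h and 1.20 (MH34) and 1.52 (B184) at 0.2/h, with SE of 0.62 to 0.98 on the log2 fold changes.

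Among the mating type genes, only HMRA1 was well covered, with 658 to 1908 counts per library. HMRA1 (YCR097W, 293835 to 294321), which encodes the a1 regulator, stood at 106 and 123 CPM in AAC, against 158 and 149 in the MH34 libraries and 181 and 188 in those of B184 at 0.1/h. The values at 0.2/h were 73.3 and 74.3 CPM in AAC, against 166 and 158 in the MH34 libraries and 178 and 174 in those of B184. The evolved strains lay above AAC at both rates, and HMRA1 followed in all 4 comparisons with departures of -0.45 (MH34) and -0.22 (B184) at 0.1/h and 0.14 (MH34) and 0.28 (B184) at 0.2/h. The reference carries α information at MAT and has no near-identical copy of HMRA1, so reads from an a1 copy at MAT and from HMR cannot be told apart.

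HMLALPHA1, HMLALPHA2, MATALPHA1 and HMRA2 had at most 3 counts in any library and did not pass the filter. MATALPHA2 had 3 to 14 counts, passed, and carried log2 fold changes of 1.46 ± 0.52 (MH34) and -0.06 ± 0.67 (B184) at 0.1/h. HMLALPHA1 and MATALPHA1 are identical in the reference, as are HMLALPHA2 and MATALPHA2, and MATALPHA2 also overlaps BUD5 on the same strand, so these few counts cannot be assigned.

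The pheromone-induced genes FUS1 and KAR4 lay above the median in every comparison. Of the 6 other tested genes with TGAAACA upstream, RNQ1, PHO87 and HCM1 followed in all 4 comparisons, POF1 and MATALPHA2 lay on both sides of the median, and SRD1 departed by -0.93 (MH34) and -0.84 (B184) at 0.1/h and by 0.16 (MH34) and 0.23 (B184) at 0.2/h. FUS1 (YCL027W), needed for fusion of mating cells, stood at 81.2 and 51.01 CPM in AAC, against 166 and 161 in the MH34 libraries and 235 and 292 in those of B184 at 0.1/h. Its replicates differed more than those of BUD3, and its departures were 0.44 (MH34) and 1.09 (B184) at 0.1/h and 0.49 (MH34) and 0.35 (B184) at 0.2/h. KAR4 (YCL055W), a regulator of genes of nuclear fusion, stood at 67.8 and 62.6 CPM in AAC, against 390.2 and 381 in the MH34 libraries and 199.7 and 223 in those of B184 at 0.1/h. KAR4 departed by 1.70 (MH34) and 0.79 (B184) at 0.1/h and by 0.49 (MH34) and 0.60 (B184) at 0.2/h. FIG2, a cell wall adhesin of mating cells, departed by -0.37 (MH34) and 1.06 (B184) at 0.1/h and by 0.60 (MH34) and 0.42 (B184) at 0.2/h, with SE of 0.40 and 0.41 on its log2 fold changes.

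The 6 genes of amino acid synthesis, breakdown and uptake had median log2 fold changes of 1.52 (MH34) and 0.91 (B184) at 0.1/h and 0.87 and 0.88 at 0.2/h. None followed in all 4 comparisons. HIS4 (YCL030C, 65934 to 68333), an enzyme of histidine synthesis, stood at 229.5 and 241 CPM in AAC, against 657 and 720.4 in the MH34 libraries and 328 and 363 in those of B184 at 0.1/h. Cultures at 0.2/h had 444 and 517 CPM in AAC, against 779 and 796 in the MH34 libraries and 872 and 876 in those of B184. HIS4 stood higher in both evolved strains at both rates and departed by 0.68 (MH34) and -0.35 (B184) at 0.1/h and by -0.29 (MH34) and -0.10 (B184) at 0.2/h. THR4, threonine synthase, departed by 0.63 (MH34) and 0.08 (B184) at 0.1/h and by -0.04 (MH34) and 0.04 (B184) at 0.2/h. ILV6, the regulatory subunit of acetolactate synthase, departed by -0.74 (MH34) and -0.09 (B184) at 0.1/h and by -0.14 (MH34) and -0.07 (B184) at 0.2/h. HIS4 and ILV6 are the 2 tested genes with TGACTCA upstream, and at 0.1/h in MH34 they departed in opposite directions.

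Of the carbon metabolism genes, ADH7 and AAD3 did not pass the filter, 1 of the 4 tested genes followed in all comparisons (RBK1, ribokinase), and 3 did not. PGK1 (YCR012W, 137746 to 138996), phosphoglycerate kinase, stood at 2078 and 2018 CPM in AAC, against 5606 and 5383 in the MH34 libraries and 1865 and 2206 in those of B184 at 0.1/h. At 0.2/h it was at 5328 and 3799 CPM in AAC, against 5697 and 4941 in the MH34 libraries and 6472 and 6493 in those of B184. B184 at 0.1/h and MH34 at 0.2/h overlapped AAC, and PGK1 departed by 0.55 (MH34) and -0.92 (B184) at 0.1/h and by -0.78 (MH34) and -0.46 (B184) at 0.2/h. Without PGK1, the chromosome III genes still took 1.44% to 1.69% of the counts in AAC and 3.01% to 3.32% in the evolved strains.

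Of the 10 genes of the ER and the secretory route, 6 followed in all comparisons, and 10 followed at 0.2/h in each strain. Their medians were 1.16 (MH34) and 0.85 (B184) at 0.1/h and 0.83 and 0.85 at 0.2/h. CPR4, a prolyl isomerase of the secretory route, had log2 fold changes of 1.14 and 1.31 at 0.1/h and 1.25 and 1.30 at 0.2/h in MH34 and B184. ELO2, a fatty acid elongase, had 2.24 in MH34 at 0.1/h and 0.94, 0.67 and 0.70 in the other comparisons.

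All 7 genes of ribosome assembly followed in B184 at 0.1/h and in both strains at 0.2/h, and 5 did so in MH34 at 0.1/h. BUD23, a methyltransferase of ribosomal RNA, was the lowest there, at -0.55 in MH34 against 0.58 in B184. Of 9 genes of the cytoskeleton and polarity, 6 followed in all comparisons and 9 in each strain at 0.2/h. Of 10 genes of chromatin and transcription, 10 followed in B184 at 0.1/h and 9 in each strain at 0.2/h, but 4 in MH34 at 0.1/h. TUP1, the general corepressor, stood at 598 and 548 CPM in AAC, against 444 and 471 in the MH34 libraries and 1080 and 1255 in those of B184 at 0.1/h, so that MH34 lay below AAC and B184 above it.

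Of 12 genes of mitochondrial proteins, 11 followed in B184 at 0.1/h, 11 and 12 in MH34 and B184 at 0.2/h, and 2 in MH34 at 0.1/h. MIC10, which shapes the cristae, had 2.04 in MH34 at 0.1/h and 0.94, 0.81 and 0.90 in the other comparisons. All 7 tested genes of the vacuole, autophagy and the endosome followed at 0.2/h in both strains, and 1 followed in MH34 at 0.1/h, where ATG22, a vacuolar amino acid exporter, had 2.67. VBA3 did not pass the filter. Of 6 genes of DNA replication, repair and segregation, 6 followed in each strain at 0.2/h and 3 in MH34 at 0.1/h.

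Of 6 genes of plasma membrane proteins and their regulators, 5 followed in MH34 and 6 in B184 at 0.2/h. The redox list stood higher, with medians of 1.65 (MH34) and 1.32 (B184) at 0.1/h and 1.50 and 1.54 at 0.2/h. Of its 5 genes, HBN1 and FRM2 were above in all comparisons, TRX3, a mitochondrial thioredoxin, followed in all, and GRX1, a glutaredoxin, had log2 fold changes of 1.65, 1.32, 1.50 and 1.54. These medians stand beside 0.87, 0.91, 1.0 and 0.97 for all 160 genes, and the lists were not tested against other genes.

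Gene length went with the log2 fold changes in MH34 at 0.1/h. The spread was almost the same with the length trend of other chromosomes removed. In that comparison short and long genes lay less far apart on other chromosomes than on chromosome III. The part of length in the spread was thus not tested. Among genes of other chromosomes, those under 600 bases lay below those over 1500 bases, by 0.19 to 0.36 on the log2 scale, in the libraries of AAC and B184 at 0.1/h. In the other 8 libraries, they lay above them by 0.08 to 0.19. In MH34 against AAC at 0.1/h, the 33 short chromosome III genes had a median departure of 0.67 and the 47 long ones of -0.05, beside 0.24 and -0.14 for other genes. Over the 148 tested genes with a length, the interquartile range in this comparison was 1.15 as fitted and 1.16 with the length trend of other genes removed, and 62 and 64 of them lay within 0.5 of the median.

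The comparison of B184 with MH34 did not enter the choice of the chromosome III genes as a set. At 0.2/h, 0 of the 160 genes were called in edgeR's quasi-likelihood test and 0 in DESeq2, with 1 of 6044 genes called in edgeR (0.0165%). At an unadjusted p under 0.05, 5 of the 160 and 204 of all genes differed. The median log2 fold change was -0.01 and the interquartile range 0.11, the narrowest of all comparisons. The log2 fold changes of single genes ran from -2.27 to 0.66. SRB8 stood at 73.9 and 80.1 CPM in MH34 and 79.3 and 78.9 in B184. It had been picked for small departures in the comparisons with AAC at both rates. Its near-equal values follow that choice and do not stand for the 160 genes.

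At 0.1/h, 104 of the 160 genes (65.0%) differed between B184 and MH34, where 62.6% of all tested genes did, 52 of them higher in B184 (background 29.1%) and 52 lower (33.6%), so the share was near the background. The largest difference among genes with at least 50 counts was that of YCR024C-B, at 631 and 636 CPM in MH34 and 126 and 141 in B184 (log2 fold change -2.25 ± 0.12, adjusted p = 1.35e-07). EGO2 was also lower in B184 (-2.05 ± 0.10, adjusted p = 1.33e-07), as were PGK1 (-1.43 ± 0.17, adjusted p = 2.14e-05) and HIS4 (-1.0 ± 0.10, adjusted p = 5.67e-06). MGR1 was higher in B184 (2.16 ± 0.11, adjusted p = 1.33e-07). YCR024C-B was named for the size of this difference. It, EGO2 and MGR1 had also been picked by departures that include MH34 at 0.1/h, so their p-values follow that choice. The median over the 160 genes was 0.01, with calls in both directions.

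The response to the dilution rate was tested within each strain. In MH34 and B184, the methods name the added ethanol at 0.1/h only. Rate and ethanol thus cannot be told apart in these 2 strains. Between the rates, 109 of the 160 genes changed in AAC (44 higher, background 32.7%, and 65 lower, 35.5%), where 68.2% of all tested genes did, and 110 in B184 (background 66.6%), with 49 higher (33.9%) and 61 lower (32.7%). In MH34, 40 genes changed (background 26.8%), with 19 higher (13.5%) and 21 lower (13.3%). The count in MH34 fell to 11 without replicate 1 and to 15 without replicate 2 of MH34 at 0.1/h, and to 16 without replicate 2 of MH34 at 0.2/h. The medians were -0.16 (AAC), 0.03 (MH34) and -0.07 (B184). Shares of the chromosome III genes called were 68.1%, 25% and 68.8% in AAC, MH34 and B184, near the background in each strain.

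The largest response among the genes of at least 50 counts was that of ADY2 in AAC, from 54.1 and 257 CPM to 8.70 and 2.62 (log2 fold change -4.80 ± 0.87, adjusted p = 0.00189), and ADY2 was also the largest in MH34 (-2.40 ± 0.71, adjusted p = 0.0438). The call in MH34 was lost when any 1 library of MH34 was left out (adjusted p of 0.103 to 0.170), when any 1 of 6 libraries of other groups was left out (0.0555 to 0.0658), and without the filter on low counts (0.0613). In B184 it was GIT1 (YCR098C), a permease for glycerophosphoinositol, at 56.5 and 48.1 CPM at 0.1/h and 337 and 346 at 0.2/h (2.71 ± 0.29, adjusted p = 7.37e-05). GIT1 also rose in AAC (2.06 ± 0.29, adjusted p = 0.000384) and in MH34 (1.75 ± 0.28, adjusted p = 0.00483). EGO2 rose in AAC (2.45 ± 0.14, adjusted p = 1.39e-07) and B184 (1.94 ± 0.10, adjusted p = 7.65e-08), and in MH34 the value was -0.23 ± 0.09, adjusted p = 0.0775. YCL048W-A fell in all 3 strains, by 2.04 (AAC), 1.42 (MH34) and 1.61 (B184) on the log2 scale (adjusted p in edgeR = 0.000109, 0.00092 and 2.54e-05). ADY2 and GIT1 were named for the size of these changes. ADY2 and EGO2 had also been picked for departures that differed between the rates, so these p-values follow that choice.

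The dependence on the rate of the difference between an evolved strain and AAC was estimated with an interaction term, coded as the log2 fold change at 0.2/h minus that at 0.1/h. At an adjusted p under 0.05 in edgeR, 98 of the 160 genes were called for MH34 (56 with a larger value at 0.2/h, background 26.6%, and 42 with a smaller one, 26.6%), where 53.1% of all tested genes were. For B184, 14 genes were (background 5.49%), 10 with a larger value (3.26%) and 4 with a smaller one (2.23%). This count was 8, 8, 4, 4, 9, 8, 1 and 1 without replicate 1 or 2 of MH34 at 0.1/h, of B184 at 0.1/h, of AAC at 0.2/h and of B184 at 0.2/h, in this order. Of the 98 and 14 genes, 76 and 1 were called in all 12 fits that left out a library, the latter YCP4. The term of EGO2 in MH34, a gene picked for its difference between the rates, was -2.68 ± 0.17. That of MGR1, picked for its low mean departure over the same comparisons, was 2.02 ± 0.15. PGK1 (-1.20 ± 0.23) and HIS4 (-0.84 ± 0.13) had negative terms in MH34. BUD3, SRB8, SPB1 and RHB1 were not called in either strain. They had been picked for small departures in all 4 comparisons, so the lack of a call carries no weight.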

How the data were processed

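The authors prepared stranded mRNA libraries from chemostat cells, sequenced them in pairs, mapped the reads to Ensembl R64-1-1 with an nf-core pipeline, and deposited raw counts per gene for 7126 genes in 12 libraries. The submitters' processing notes name TopHat2 2.0.12, Cufflinks 2.2.1 and Subread 1.4.6. The strand setting and the rule for reads with several matches are not given in the sources used here, so counts of overlapping and near-identical genes are uncertain. Libraries held 6040221 to 10785960 counts, and values of genes with few counts are the least precise.

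The counts were fitted in edgeR 4.0.16 (R 4.3.3) with TMM normalization, a low-count filter by group that left 6044 genes, and robust quasi-likelihood tests, all 6 groups in 1 model. Benjamini-Hochberg adjustment covered all 6044 genes, and calls required an adjusted p under 0.05. Standard errors of log2 fold changes had a median of 0.10. CPM values are TMM-scaled. Duplicates are separate cultures of 1 isolate per strain, so the tests measure the spread between cultures, and with 2 against 2 libraries a permutation test cannot go below 0.333. The replicate numbers showed no pairing of the libraries common to all groups. Alternatives were DESeq2 1.42.0, other scalings, filters, limits and subsets, a replicate block, and leaving out each library. Of the 71 and 113 genes, 166 matched RefSeq R64 by id. Near-identical copies were searched with BLAST 2.17.0 (at least 95% identity over at least 50% of the length).

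The genes and the 12 role lists were chosen with earlier results of these data known. Among genes with at least 50 counts on average, the text names the 6 lowest and the 6 highest mean departures, the 4 nearest to the median, the 4 with the largest difference between rates, and the largest called change in each tested comparison. It also names up to 4 genes of a role list by mean count, the mating type genes, LEU2, HIS4 and PGK1, and some genes chosen after their values were seen (KIN82, FRM2, KCC4, YCR064C, YCR097W-A, EGO2 in the rate tests, YCP4, other genes with a motif or a called dependence on the rate, and the genes of the right end). The procedure was tested on simulated data.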

Additional observations from a re-analysis of the deposited data

Results flagged for a closer look

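The difference between an evolved strain and AAC was called as dependent on the dilution rate, in edgeR's interaction term (log2 fold change at 0.2/h minus that at 0.1/h), for 98 of the 160 tested chromosome III genes in MH34 (53.1% of all genes) and 14 in B184 (5.49%). Of the 24 tested genes that were singled out by their rank or fixed by name, 11 were called in MH34 and 2 of them also in B184. CIT2, EGO2 and YCR024C-B are among them and had been picked for their difference between the rates, so their calls carry no weight. MGR1, PET18, HBN1, YCL019W and MRPL32 had been picked by their mean departure over the comparisons with AAC. The term is made from the same comparisons, so their calls follow that choice. All terms are made from the comparisons with AAC that chose the chromosome, and the values are a description.

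In MH34, the term was positive for MGR1 (2.02), HMRA1 (0.72), YCL019W (0.59) and MRPL32 (0.53). It was negative for EGO2 (-2.68), YCR024C-B (-2.40), CIT2 (-2.37), PET18 (-1.22), PGK1 (-1.20), HBN1 (-1.08) and HIS4 (-0.84). Without replicate 2 of MH34 at 0.1/h, MRPL32 (0.48) and YCL019W (0.54) were no longer called, and the other 9 were called in all 12 fits that left out a library. The counts of YCL019W cannot be assigned to its copy on chromosome III. Other genes described above and called in MH34 included ATG22 (-1.52), ELO2 (-1.56), MIC10 (-1.23), ILV6 (0.74), BUD23 (1.48), TUP1 (1.22) and YCR099C (-1.70), again in all 12 fits. FRM2 (-1.25) and KAR4 (-1.08) were called in 8 and 7 of the 12.

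In B184, the term was negative for CIT2 (-1.36) and positive for HMRA1 (0.57). Without replicate 1 or 2 of B184 at 0.2/h, neither was called, at -1.29 and -1.44 for CIT2 and 0.55 and 0.58 for HMRA1. HMRA1 was also lost without replicate 1 of B184 at 0.1/h (0.54). The calls of TRX3 (0.64), SOL2 (0.56), EMA35 (-0.67) and YCR102C (-0.61) were lost without either replicate of B184 at 0.2/h as well, and YCP4 (1.29) was the 1 gene called in all 12 fits. The parts of gene length and of the added ethanol in these differences were not tested.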

How the results depend on the processing

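The median of each comparison with AAC stayed positive under every alternative run, while the counts of genes in a class depended on the limit. The alternatives use the libraries by which the chromosome was chosen, so the sign of the medians carries no weight. With TMM factors from other chromosomes, the median was 0.93 in B184 at 0.1/h and 1.01 in MH34 at 0.2/h. In fits of the compared groups alone, it was 0.84 (MH34) and 0.93 (B184) at 0.1/h. Over genes that average 50 counts or more, it was 0.81 (MH34) and 0.89 (B184) at 0.1/h, and 0.97 (MH34) and 0.95 (B184) at 0.2/h. Over genes in RefSeq, it was 0.98 in MH34 at 0.2/h. With the length trend removed (148 genes), an alternative chosen after seeing the data, it was 0.95 in B184 at 0.1/h and 0.98 in MH34 at 0.2/h. Leaving out 1 library at a time gave 0.88 to 0.93 and 0.89 to 0.93 for MH34 and B184 at 0.1/h, and 0.98 to 1.0 and 0.96 to 0.99 at 0.2/h.

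With a limit of 0.3 in place of 0.5, 16 genes followed in all comparisons, 7 stayed below and 15 above, and 38 followed in MH34 at 0.1/h. The count below was 5 around the mean and 7 without the filter on low counts. Over 3 comparisons without MH34 at 0.1/h, chosen after seeing the data, 109 followed. Leaving out 1 library gave 11 to 56 genes that changed with the rate in MH34, and 1 to 20 whose difference between B184 and AAC depended on the rate. The log2 fold change of ADY2 in MH34 at 0.1/h ran from -0.90 to 1.35 with 1 library left out, the latter without replicate 2 of AAC at 0.1/h. MATALPHA2 had no value in fits of the compared groups alone where the filter removed it. The other counts stayed within 1.5 times their value. The same-number correlations between groups ran from -0.20 to 0.37, so no pairing common to all groups was seen. The highest was that of AAC with MH34 at 0.2/h, and a pairing of these 2 groups alone was not modelled. With the replicate block, 51 genes followed, 3 were below and 9 above, and 98 (MH34) and 12 (B184) depended on the rate. Under the block, the adjusted p of the rate response of ADY2 in MH34 was 0.056. Depth limits the genes under 50 counts, 21 of the 160, and the 24 that were not tested. With 1 isolate per strain, strain effects cannot be told apart from those of the isolate, and DNA copies were not measured in these libraries.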
